A study of Mus musculus with 12 samples.

Results

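The untreated samples of this series are resting mouse macrophages grown from bone marrow, and the report describes which genes they carried transcripts of and how evenly their signals repeated over 3 arrays. The members are the 35509 gene names with a usable probe on all 3 untreated arrays, out of 35527 in the whole series, and 3 of its 12 arrays. The remaining 18 names had only probes with an outlier spot on one of the arrays. Members were taken by the sample titles alone and by no measured value.

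Total RNA was converted to Cy3-labelled cRNA from 200 ng per sample and hybridised to single-colour Agilent oligonucleotide arrays with probes of 60 bases. Marrow was taken from C57BL/6 females of 6 to 8 weeks of age, and the cells had been grown for 7 days in medium conditioned by L929 cells, a fibroblast line that secretes colony stimulating factor 1. They were given no lipopolysaccharide (LPS), whereas the acute, tolerant and recovered groups of the series, with 3 arrays each, were. The 3 untreated arrays are described as independent experiments, but whether each used its own animals, and whether marrow of several animals was pooled, is not stated, so the spread between them may be partly technical. How long the untreated cells were kept after differentiation is not stated either.

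Macrophages are tissue phagocytes that engulf microbes and dying cells, digest them in lysosomes, present antigen and release cytokines. Colony stimulating factor 1, acting through the receptor encoded by Csf1r, keeps them alive, and the transcription factors PU.1 (Spi1), C/EBP alpha and IRF8 direct their development. Cultures grown from marrow with this factor are a standard source of primary macrophages, kept in a resting state until a stimulus such as LPS is added.

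A level here is the log2 of the background-subtracted spot signal after each array was scaled to its 75th percentile, and a gene is represented by its brightest probe. A probe's signal depends on its sequence as well as on its transcript, so levels of different genes are given side by side but not ranked. A gene was counted as detected when the scanner software marked its probe well above background. In a culture measured in bulk, a low level from fewer cells of a type and from less RNA per cell cannot be told apart.

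The arrays were alike in quality. Between 50.5% and 54.9% of spots were well above background, 0 spots were saturated, and the lowest level marked well above background was 4.00, 4.26 and 3.94 on arrays 1, 2 and 3. The 308 negative control spots had median levels of 1.91, 2.18 and 1.90. The arrays had 3 different recorded scan times, and the third was scanned on the second of 2 days. Slides were not identified by a label, and a shared scan time was taken as a shared slide. Experiment, slide and scan day therefore cannot be told apart.

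Of all members, 19449 (54.8%) were well above background on all 3 arrays and 13073 (36.8%) on none. Another 1169 passed on 2 arrays and 1818 on 1. Among the 23021 names that matched a reference gene, 13712 (59.6%) passed on all 3. Protein-coding genes passed in 62.4% of cases, long noncoding RNA genes in 27.4% and the long intergenic noncoding loci of the array design in 55.1%. Of the 10802 genes with several probes 68.7% passed, against 48.7% of the 24707 genes with 1 probe. Several probes give a gene more chances to pass, but the part of this in the difference was not tested.

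**Figure D1:**
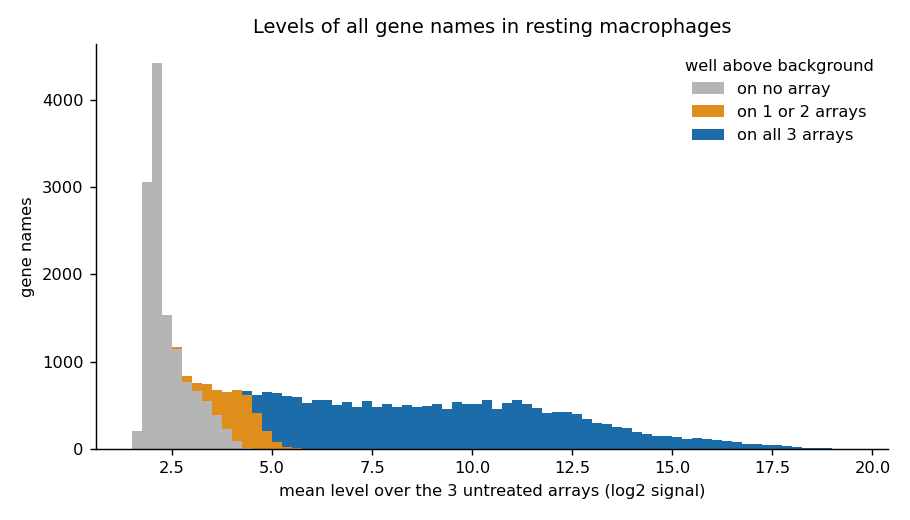
Histogram of the mean level over the 3 untreated arrays (x axis, log2 signal) for all 35509 gene names (y axis, number of names), coloured by whether the probe was well above background on all 3 arrays, on 1 or 2, or on none. Names on no array form a narrow peak near the median of the negative controls, and the 19449 names on all 3 arrays spread up to 18.9.

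The label of the cells was checked against 25 genes of the macrophage core programme, and 24 of them were detected on all 3 arrays. Csf1r, the receptor for the growth factor in the medium, had levels of 17.33, 17.28 and 17.56 (mean 17.39 ± 0.15, SD, n = 3). All 3 of its probes passed on every array, but they differed in level, the dimmest having 11.30, 11.56 and 12.40. Marco, a scavenger receptor for bacteria and particles, had levels of 18.22, 18.32 and 18.09 (18.21 ± 0.12). Both genes repeated closely over the 3 arrays. Cebpa, the gene of C/EBP alpha, had 10.14, 10.62 and 11.00 (10.58 ± 0.43), and Mrc1, the mannose receptor CD206, had 12.32, 12.04 and 12.36 (12.24 ± 0.18). On mm9 the probe of Cebpa lies at chr7:35906517-35906576 and that of Mrc1 at chr2:14253273-14253332. For Marco the scanner files list chr1:122371115-122371134, an interval shorter than the probe, and where its other bases lie is not stated.

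Other surface markers of macrophages were detected on every array as well. Adgre1, which encodes the F4/80 antigen and is named Emr1 on the array, had levels of 17.53, 17.37 and 16.85. Itgam, the integrin CD11b, had 14.65, 14.70 and 14.31. Cd14, the LPS co-receptor, had 15.35, 15.36 and 15.55. Lyz2, the lysozyme gene of myeloid cells, had 16.69, 16.93 and 17.25. Its paralogue Lyz1 had 17.53, 17.64 and 17.51, and near-identical sequences of such a pair can share signal. Mertk, a receptor for dying cells, was the core gene with the widest spread: 10.49 and 10.88 on arrays 1 and 2 against 12.46 on array 3. The only core gene not detected on any array was Cd163, the haemoglobin scavenger receptor, at 1.83, 2.06 and 1.92.

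**Figure D2:**
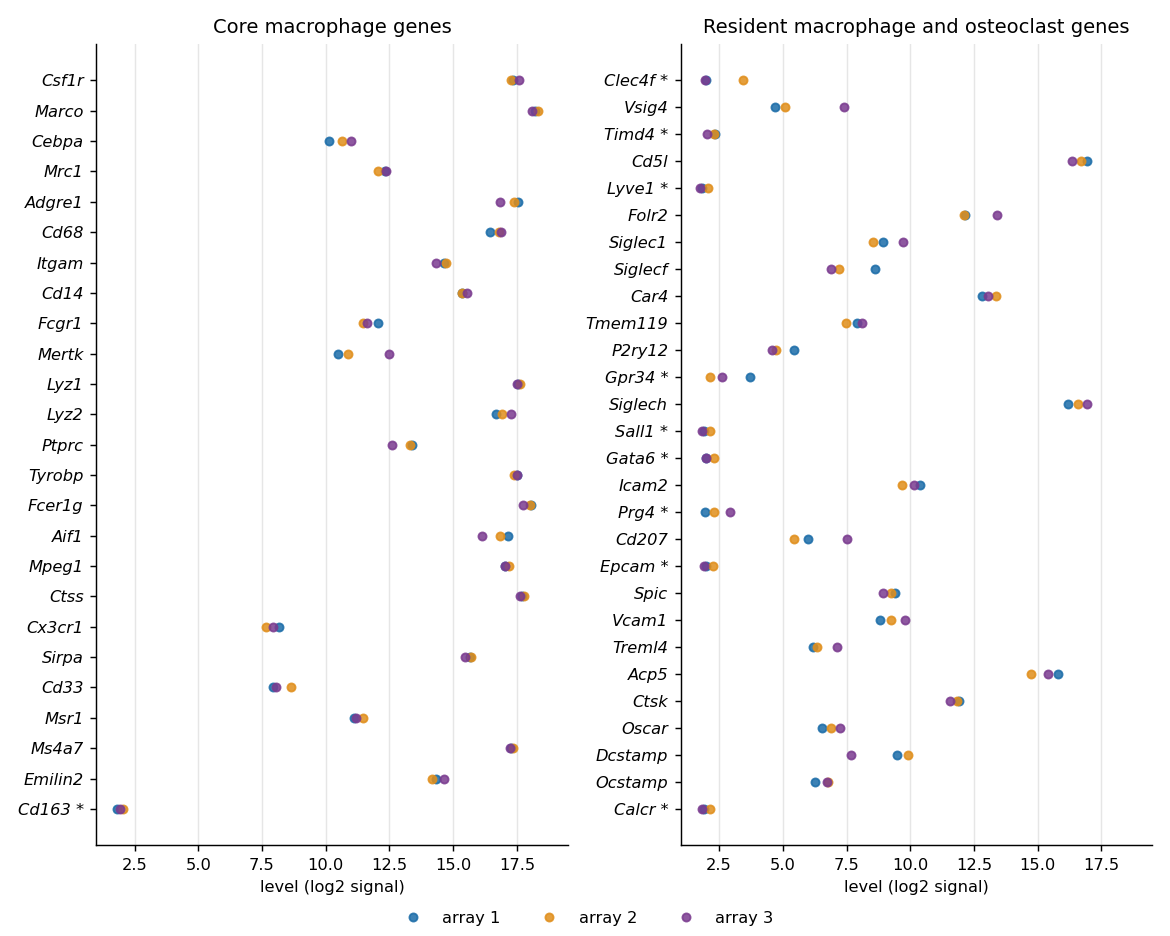
Level on each untreated array (x axis, log2 signal; 1 point per array) of the 25 core macrophage genes (left) and the 28 genes of resident macrophages and osteoclasts (right); an asterisk marks a gene not well above background on all 3 arrays. In the left panel 24 genes lie on the detected side and Cd163 alone lies at the background, whereas 9 genes of the right panel lie there, among them Timd4, Lyve1 and Gata6.

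Genes that mark macrophages resident in particular tissues were detected less evenly, 19 of 28 (67.9%) on all 3 arrays, beside 54.8% of all names. Cd5l, a secreted scavenger protein of liver and spleen macrophages, had levels of 16.92, 16.68 and 16.34. Acp5, the tartrate-resistant phosphatase of osteoclasts, had 15.78, 14.75 and 15.42, and Ctsk, the collagen-degrading cathepsin of osteoclasts, averaged 11.77 ± 0.20. Spic, the transcription factor of red pulp macrophages of the spleen, averaged 9.20 ± 0.25, and Tmem119, a microglial marker, 7.84 ± 0.32. Vsig4, a complement receptor of resident macrophages, had 4.68 and 5.09 on arrays 1 and 2 against 7.39 on array 3. The 9 genes detected on no array included Timd4 and Lyve1, markers of long-lived resident cells, Gata6, the factor of peritoneal macrophages, Clec4f of Kupffer cells, Sall1 of microglia and Calcr, the calcitonin receptor of osteoclasts.

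Among myeloid transcription factors, 27 of 29 were detected on all 3 arrays. Spi1 (Sfpi1 on the array) had levels of 11.10, 11.29 and 11.11, and Irf8 had 13.64, 13.81 and 13.72. Mitf, a factor of osteoclasts and macrophages, averaged 12.79 ± 0.19, and the lipid-sensing nuclear receptors Pparg and Nr1h3 12.03 ± 0.27 and 12.61 ± 0.50. Gfi1, a factor of the granulocyte line, was detected on no array. Irf4, a factor linked to alternative activation and dendritic cells, was well above background on array 1 alone (6.63, against 4.22 and 3.21).

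Of 22 genes for colony stimulating factors, other growth factors and their receptors, 19 were detected on all 3 arrays. The receptor chains for granulocyte-macrophage factor, Csf2ra and Csf2rb, averaged 15.83 ± 0.14 and 14.42 ± 0.15. Their ligand Csf2, the granulocyte factor Csf3 and the progenitor receptor Flt3 were detected on no array. Csf1 itself averaged 7.68 ± 0.28, from 1 of its 3 probes, and Il34, the other ligand of the Csf1r protein, 4.60 ± 0.36. Igf1, a trophic factor made by macrophages, had levels of 15.03, 15.12 and 15.13. All 5 of its probes passed on every array, and the dimmest averaged 9.77.

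The receptors with which macrophages take up particles and lipids were detected for 29 of 34 genes. Trem2, a receptor for lipids and dying cells, had levels of 16.42, 16.59 and 17.07. Clec7a, the beta-glucan receptor Dectin-1, averaged 14.70 ± 0.18, Cd36, a receptor for oxidised lipoprotein, 13.94 ± 0.29, and Axl, a receptor for dying cells, 9.73 ± 0.36. Mrc2, Cd209a, Cd209b, Clec9a and Olr1 were detected on no array.

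Toll-like receptors and other innate sensors were detected for 36 of 39 genes in these cells that had met no LPS. Tlr4, which recognises LPS, had levels of 11.37, 11.10 and 10.89, and its partner Ly96 (MD-2) 12.38, 12.23 and 11.65. Tlr2, the receptor for bacterial lipopeptides, averaged 13.41 ± 0.19, Tlr13, a sensor of bacterial ribosomal RNA, 14.22 ± 0.32, and Tlr9, a sensor of DNA, 11.39 ± 0.30. Tlr3, the sensor of double-stranded RNA, averaged 6.19 ± 0.15. The inflammasome sensor Nlrp3 had 5.61, 5.70 and 5.68 on the 3 arrays. The 3 members detected on no array were Tlr5, which recognises flagellin, Tlr11 and Tlr12.

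Inflammatory cytokines and alternative activation genes were the role lists detected least often, each at 50%, near the 54.8% of all names. Of 26 cytokines 13 passed on all 3 arrays, 3 on 1 or 2 and 10 (38.5%) on none, beside 36.8% of all names. Tnf had levels of 12.88, 13.00 and 12.68. Il1b had 7.24, 6.08 and 6.20, and Il6 had 7.95 on array 1 against 5.85 and 5.34. Tnf repeated within 0.16 (SD), while Il6 spread by 1.38 (SD). Il10, the cytokine that restrains inflammation, had 9.97, 9.15 and 8.53, and Ebi3, a subunit shared by IL-27 and IL-35, averaged 16.18 ± 0.45. Il18 averaged 8.49 ± 0.17 and the IL-1 receptor antagonist Il1rn had 7.68, 7.97 and 7.16. Il12b, the p40 subunit of IL-12 and IL-23, had 2.14, 2.27 and 2.10, and Ifnb1, the gene of interferon beta, 2.11, 2.33 and 2.13, and neither was well above background on any array. Il1a, Il23a and Tnfsf10 passed on only some arrays, with levels of 3.15, 5.16 and 4.34 for Il1a. Il4, a lymphocyte cytokine, passed on all 3 at 5.35 ± 0.17.

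Chemokines were detected for 19 of 25 genes. The monocyte attractant Ccl2 had levels of 13.09, 12.10 and 11.43, and Ccl3 (MIP-1 alpha) 15.68, 14.90 and 13.95. For both genes array 1 was the highest and array 3 the lowest. Ccl6 averaged 15.02 ± 0.73, Cxcl16 12.34 ± 0.27, Ccl5 10.38 ± 0.52 and the interferon-inducible Cxcl10 9.04 ± 0.39. Ccl9 lay between 14.80 and 15.19. Ccl22, Ccl24, Cxcl5, Cxcl12 and Cxcl13 were detected on no array, and Ccl17 was on 1. The brightest probe of Cxcl11 (17.92 ± 0.19) carries a repeated sequence that is shown with the probes further on.

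Receptors for cytokines and chemokines were detected for 24 of 32 genes. The interferon receptor chains Ifnar1 and Ifngr1 averaged 11.66 ± 0.24 and 13.50 ± 0.24, the IL-10 receptor Il10ra 12.94 ± 0.27, and the IL-4 receptor Il4ra had 9.14, 8.94 and 8.93. Cxcr4 averaged 9.81 ± 0.09. Ccr2, which brings monocytes out of the marrow, had 2.79, 2.74 and 1.83 and was detected on no array, as were Ccr1, Ccr7, Cxcr2, Il1r2, Il18r1 and Ackr3. Il1r1 passed on 2 arrays.

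All 40 interferon response genes were detected on all 3 arrays, with a median level of 10.73, while Ifnb1, Ifna4 and Ifng were detected on none. Isg15, a ubiquitin-like protein, averaged 13.70 ± 0.28, Ifitm3, which blocks viral entry, 14.84 ± 0.14, Oas1a 15.05 ± 0.18 and Rsad2 (viperin) 10.68 ± 0.19. Ifit1 had levels of 10.19, 9.82 and 9.33, Irf7 averaged 9.40 ± 0.37 and Mx1 8.38 ± 0.18. Ddx60, measured with 1 probe, averaged 4.81 ± 0.38.

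Antigen presentation genes were detected for 23 of 25 members. Beta-2 microglobulin (B2m) averaged 17.20 ± 0.12 and the class I gene H2-K1 16.47 ± 0.20. The class II gene H2-Ab1 had levels of 13.00, 12.56 and 11.40, and Cd74, the class II chaperone, 13.40, 12.86 and 11.67. In both, array 3 lay more than 1 log2 unit below the others. The same array was the lowest for the costimulatory genes Cd86 (10.79, 9.73 and 8.85) and Icosl (11.78, 11.68 and 9.10), while Cd80 averaged 11.60 ± 0.14. Ciita, the activator of class II genes, averaged 4.62 ± 0.28, just above the lowest detected levels. H2-Ea and Tnfsf4 were detected on no array.

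In the complement list 13 of 20 genes (65%) were detected on all 3 arrays, beside 54.8% of all names. The 3 chains of C1q had mean levels of 14.52 ± 0.28 (C1qa), 16.00 ± 0.20 (C1qb) and 15.78 ± 0.05 (C1qc), properdin (Cfp) 16.30 ± 0.13 and C3 14.19 ± 0.28. The terminal components C6, C8a and C9 and the mannose-binding lectins Mbl1 and Mbl2, made mainly by liver, were detected on no array. Hc passed on 1 array and C1s1 on 2.

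Effector and antimicrobial genes were detected for 25 of 27. Nos2, the inducible nitric oxide synthase, had levels of 9.57, 9.77 and 9.06, and Acod1 (Irg1 on the array), which makes itaconate, 11.47, 12.38 and 12.30. Arg1, which competes for the same arginine, had 2.06, 3.01 and 1.93 and was detected on no array. Arg2 was detected on arrays 2 and 3 (4.60 and 5.09) and not on array 1 (1.93). Ptgs2, the inducible cyclooxygenase, had 7.90, 7.08 and 5.89, and Ptgs1, the other cyclooxygenase, averaged 10.13 ± 0.46. Hmox1, which breaks down haem, had 11.63 on array 1 against 15.01 and 15.44. The oxidase subunit Cybb averaged 12.32 ± 0.33.

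Of 20 genes linked to alternative activation by IL-4, 10 (50%) were detected on all 3 arrays and 8 (40%) on none. Among all names 54.8% and 36.8% were. Those on none included Retnla (2.01, 2.25 and 1.96), Chil3 (3.72, 4.41 and 3.97, named Chi3l3 on the array), Alox15, Ccl22 and Ccl24. Mgl2, a lectin, averaged 13.80 ± 0.08, the transglutaminase Tgm2 12.90 ± 0.22, the transferrin receptor Tfrc 12.04 ± 0.10, and the transcription factors Egr2 and Myc 10.87 ± 0.61 and 9.64 ± 0.98. Flt1 passed on 2 arrays.

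Lysosomal genes were detected for 33 of 34 members, with a median level of 15.2. The cathepsins Ctsd (18.37, 18.55 and 18.71) and Ctsb (18.01, 18.17 and 18.05) and the membrane protein Lamp1 (17.66 ± 0.04) repeated within 0.17 (SD). Gpnmb, a lysosomal glycoprotein, averaged 17.48 ± 0.41. Ctse was detected on no array. Of 24 matrix proteases and their inhibitors, 16 (66.7%) were detected, beside 54.8% of all names. Mmp12, the macrophage elastase, averaged 12.68 ± 0.85, Mmp9 10.42 ± 0.31, Mmp14 9.23 ± 0.82 and the inhibitor Timp2 16.15 ± 0.26. Mmp2, Mmp3, Mmp10, Mmp25, Timp3 and Adamts4 were detected on no array. Plat passed on 1 array and Serpinb2 on 2.

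All 28 genes of lipid handling were detected. Apoe, which carries cholesterol out of cells, had levels of 17.72, 17.61 and 18.50, and Lpl, which releases fatty acids from lipoprotein, 17.27, 16.98 and 17.17. Fabp5 and Fabp4, fatty acid binding proteins, averaged 17.58 ± 0.14 and 14.08 ± 0.22, the lipid droplet protein Plin2 15.44 ± 0.66 and the efflux pump Abca1 13.11 ± 0.40. Ch25h, which makes 25-hydroxycholesterol, had 9.49 and 9.14 on arrays 1 and 2 against 6.84 on array 3. Of 28 glycolytic genes 26 were detected. Pkm averaged 15.56 ± 0.15, Ldha 16.29 ± 0.13, and the hexokinases Hk1 and Hk2 12.93 ± 0.08 and 11.26 ± 0.73, while Hk3 had 13.74, 13.86 and 14.40. Pklr, a pyruvate kinase isoenzyme of liver, was detected on no array.

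Cell cycle genes were detected for 29 of 31 members. Mki67, a marker of cycling cells, had levels of 11.61, 10.97 and 11.51, and the DNA topoisomerase Top2a 9.93, 9.32 and 9.96. For both, array 2 was the lowest. Ccnd1, a cyclin that growth factors raise, averaged 12.30 ± 0.31, the nucleotide reductase Rrm2 11.65 ± 0.37, the helicase subunit Mcm2 9.51 ± 0.24 and the cell cycle inhibitor Cdkn1a 13.03 ± 0.24. Ccne2 and Aurkb were detected on no array. A share of cycling cells cannot be read from these levels.

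Over the 20 role lists together, 474 of 554 genes (85.6%) were detected on all 3 arrays, beside 54.8% of all names and 59.6% of reference genes. The lists were written by hand from genes known in macrophages, so their share was not tested against that of other genes. Of the 474, 123 had several probes, and 12 of these had another probe that was detected on no array.

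**Figure D3:**
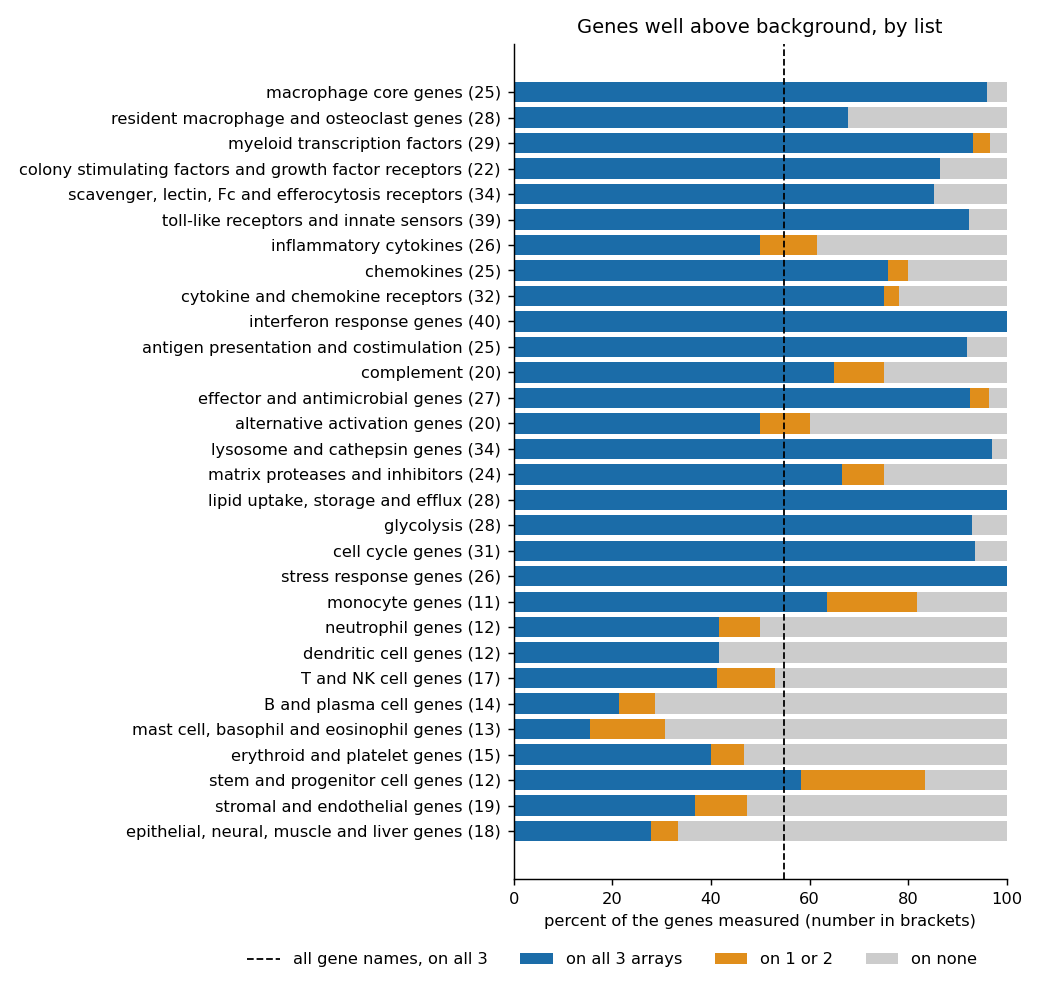
Share of each gene list (x axis, percent; number of genes measured in brackets) that was well above background on all 3 untreated arrays, on 1 or 2, or on none; the dashed line marks 54.8%, the share of all gene names on all 3 arrays. The lists of interferon response, lipid and stress genes are full, and of the lists of other cell types all but those of monocytes and of stem and progenitor cells lie below the line.

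Lists of 10 other cell types were examined in the same way, and 54 of their 142 genes (38.0%) were detected on all 3 arrays and 73 on none. Of the 54, 19 had several probes, and 10 of these had another probe that was detected on no array. Zbtb46, Tpsb2, Krt5, Sparc, Gp1bb, Hoxa9, Vcan and Treml2, given here as detected, passed with only 1 of their probes. The neutrophil list was split, with 5 of 12 genes detected on all 3 arrays, 1 on 2 and 6 on none. S100a9, Ngp, Ltf, Cxcr2 and Retnlg were among those on none. Elane, a neutrophil granule protease, had 12.09, 12.60 and 12.67, the collagenase Mmp8 had 11.36, 11.54 and 9.77, S100a8 averaged 8.39 ± 0.50, and Camp and Cebpe lay lower. Of 11 monocyte genes 7 (63.6%) were detected, beside 54.8% of all names. They were S100a4 (15.45 ± 0.29), which macrophages also express, Nr4a1 (8.64 ± 0.14), Vcan (8.05 ± 0.37), Ly6c1 (7.38 ± 0.19), Ace (6.03 ± 0.20), Fn1 and Treml2. Fn1 had 6.17, 6.85 and 4.38, and Treml2 averaged 4.71 ± 0.23. F13a1 and Plac8 passed on 1 array and Ccr2 on none. In the dendritic cell list 5 of 12 genes were detected, including Batf3 (11.52 ± 0.47), Bst2 (15.49 ± 0.17), Zbtb46 (5.32 ± 0.43) and Fscn1 (5.12 ± 0.40). Siglech, the remaining one, passed with 1 of its 3 probes. Flt3, Clec9a and Xcr1 were not detected.

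T and NK cell genes were detected for 7 of 17, without the CD3 chains Cd3d and Cd3g and without Cd8a. Cd3e had levels of 10.30, 10.48 and 11.00 and Cd4 had 11.64, 11.97 and 11.90. Il7r averaged 12.59 ± 0.23, Prf1 8.83 ± 0.09 and Lck 6.85 ± 0.07, and Cd5 and Gzma lay lower. The B cell list had 3 of 14: Cd79b (11.49, 10.50 and 9.86), Sdc1 (10.35 ± 0.34) and Vpreb1 (5.45 ± 0.05), while Ms4a1, Pax5 and Ebf1 were detected on no array. Members of one receptor complex thus fell on both sides of the background: Cd3e was detected without Cd3d and Cd3g. Cd79b was detected on all 3 arrays and its partner Cd79a on 1.

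Erythroid and platelet genes passed for 6 of 15, among them Epor (7.83 ± 0.10), Gp9 (8.26, 7.27 and 6.23), Gp1bb, Hba-a1 (5.47 ± 0.28) and Slc4a1, and not Gata1, Klf1 or Ahsp. In the mast cell, basophil and eosinophil list Tpsb2 (6.55 ± 0.60) and Ear6 (6.08 ± 0.30) passed, 2 of 13. Stem and progenitor genes passed for 7 of 12 (58.3%), near the 54.8% of all names. Procr averaged 12.40 ± 0.67, Gfi1b had 10.49, 10.01 and 8.43, Ly6a had 8.23, 5.77 and 6.75, Kit averaged 6.58 ± 0.42, and Meis1, Sox4 and Hoxa9 passed too. Of 19 stromal and endothelial genes 7 passed. Kdr, a receptor for vascular endothelial growth factor, had 13.05, 13.35 and 13.83 with both probes detected, the dimmer one averaging 8.35. Vwf averaged 11.47 ± 0.35 and Lepr 11.03 ± 0.24 with 1 of 4 probes, and Acta2, Pecam1, Sparc and Col1a2 lay lower. Col1a1, Col3a1, Pdgfra, Cdh5 and Tek were detected on no array.

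Genes of epithelia, nerve, muscle and liver passed for 5 of 18: Snap25, a synaptic vesicle fusion protein, at 12.98, 13.53 and 13.32, Mbp at 12.66 ± 0.15, Ins2 at 7.75 ± 0.38, Krt14 at 6.25 ± 0.12 and Krt5 at 6.02 ± 0.33. Alb, Sftpc and Epcam were at background. For the label of female mice, Xist, the RNA of the inactive X chromosome, had 9.55, 9.32 and 10.19, while the Y-linked Ddx3y, Kdm5d and Eif2s3y were detected on no array and Uty was on array 1 alone (4.75, against 2.20 and 1.88).

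The 1% of names with the highest signal comprised 356 genes with levels from 16.5 to 18.9. Cytosolic ribosomal proteins gave 48 of them, and 61 were annotated pseudogenes, which share sequence with their parent genes. Named by role and in no order, they included the cytoskeletal genes Actb, Tmsb4x, Cfl1 and Vim, the iron storage genes Fth1 and Ftl1, the translation factor Eef1a1, the glycolytic genes Aldoa and Gapdh, the cathepsins Ctsb, Ctsd, Ctsl, Ctss and Ctsz with the inhibitor Cst3 and the saposin precursor Psap. They also held the signalling adaptors Tyrobp and Fcer1g, the receptors Csf1r, Marco and Trem2, the oxidase subunit Cyba, the galectin Lgals3, Apoe, Lpl, Fabp5, Lyz1, Lyz2, Cd68 and B2m. These signals repeated closely, with a median SD of 0.195.

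Part of this top group was measured by probes that hold a word of 14 bases also present in probes of at least 3 other gene names. Words that are simple repeats were not counted as shared. Probes with a shared word made up 2148 of 55634 probes in all, and a further 961 held a simple repeat only. The probes with a shared word were the brightest probe of 127 of the 356 top genes (35.7%), beside 1701 of all members (4.79%). The words of the probes fall into families, and 4 are shown, a pair from bright probes and a pair from probes of 2 gene families; all letters are capitals because the whole word is shared.
Word in probes of Pbld, Synrg, Mrpl27 and others: GTGTCTGAAGACAG
Word in probes of Elk1, Med16, Siglech and others: GCTACACAGAGAAA
Word in probes of olfactory receptors: AGGAATAAGGATGT
Word in probes of Zfp386, Zfp534, Zfp81 and others: GGAGAGAAACCTTA

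The first is part of the B2 and the second of the B1 short interspersed repeats, mobile elements present in very many copies in the mouse genome and in the untranslated parts and introns of many transcripts. All 15 gene names with the B2 word were detected on all 3 arrays, with a median level of 17.0, and so were all 9 with the B1 word, also with a median of 17.0. The B2 word in the opposite strand lay in 2 probes with a median of 7.29, and the B1 word in the opposite strand in 5 probes with a median of 10.99. Both of the former and 4 of the latter were detected on all 3 arrays. By contrast, the olfactory receptor word lay in 21 probes of 18 gene names with a median of 2.09, and 20 of these probes were detected on no array. The zinc finger word lay in 16 probes with a median of 7.01. A further shared word, not shown, lay in 9 probes with a median of 10.80. In the opposite strand that word lay in 3 probes with a higher median, 11.66. The part of strand in these levels was not tested. Shared words were thus found in bright and in dim probes.

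For genes with a second probe the disagreement can be read directly. Of 127 top genes with several probes, 42 had probes more than 5 log2 units apart, 21 of them with a shared word in the brighter one, and 15 had a dim probe detected on no array. The stretch of the brighter probe is shown for 6 genes, with the shared words in capitals.
Kctd14: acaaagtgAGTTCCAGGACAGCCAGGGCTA
Slc10a1: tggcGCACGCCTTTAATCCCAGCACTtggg
Pbld: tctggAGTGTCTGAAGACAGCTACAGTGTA
Siglech: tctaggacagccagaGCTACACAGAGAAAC
Elk1: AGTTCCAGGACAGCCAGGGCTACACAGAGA
Cxcl11: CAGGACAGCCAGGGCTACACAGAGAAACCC

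Slc10a1, the bile acid transporter of hepatocytes, had levels of 18.22, 18.54 and 18.82 with the probe shown and 2.18, 2.26 and 2.13 with its other probe. Kctd14 had 18.64, 18.89 and 18.94 against 2.22, 2.22 and 1.88, and Pbld had 17.70, 17.78 and 17.96 against 1.96, 2.20 and 2.31. In these genes the lower probe was at background on every array. Siglech, a receptor of plasmacytoid dendritic cells, had 16.17, 16.60 and 16.92 with the probe shown and 2.59, 2.32 and 2.97 with its dimmest one. Elk1 and Cxcl11 were detected with both probes, Cxcl11 at 11.57, 12.15 and 12.50 with the lower one. The level given for each of these 6 genes depended on which probe stood for it. Among the list members named above, the brightest probes of Cd68, Spic, Ccl9, Gapdh and Ins2 also carry a shared word. So does that of Col1a1, which was detected on no array. Cd68 was detected with both of its probes, the dimmer one averaging 12.88.

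Over all 19449 detected genes the SD between the 3 arrays had a median of 0.269 log2 units, and 45.1% of genes stayed under 0.25. Spread fell with level, from a median SD of 0.335 in the genes of lowest level to 0.219 in those of highest level, when the genes were cut into 4 equal groups by level. Levels of arrays 1 and 2 correlated across genes at r = 0.992, those of 2 and 3 at 0.987 and those of 1 and 3 at 0.980, and genes are not independent replicates. Differences of more than 2-fold were found in 2.16% of genes between arrays 1 and 2, 5.23% between 2 and 3 and 10.8% between 1 and 3.

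An SD above 1 was found in 233 genes (1.2%), and in 161 of these (69.1%) array 3 was the one that stood apart, higher in 72 and lower in 89. Over all detected genes array 3 stood apart in 44.1%. Without array 3 the count was 113, without array 2 it was 691, and without array 1 it stayed within 1.5 times of 233. These counts rest on SDs over 2 arrays and so are not strictly comparable with that over 3. Among names matched to a reference gene the widest spread was that of Slc7a5, a transporter of large neutral amino acids, with levels of 10.02, 9.66 and 5.64. Flvcr2, a membrane transporter, had 10.98, 10.48 and 6.57. Trib3, a pseudokinase that the transcription factor ATF4 induces, had 14.73, 13.43 and 10.32, and Chac1, a glutathione-degrading enzyme of the same response, 12.84, 11.96 and 8.85. Array 3 was the low one in all of these.

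The other widely spread genes included Phgdh, the first enzyme of serine synthesis, at 12.54, 11.37 and 9.04, and Nupr1, a stress-induced nuclear protein, at 14.82, 13.51 and 11.41. The lipid genes Scd1 (9.38, 9.28 and 6.33), Soat2 (10.45, 9.22 and 7.05) and G0s2 (8.31, 6.66 and 4.82) and the peptide hormone gene Adm (8.97, 7.91 and 5.36) followed the same order. So did Serinc2 (8.72, 8.69 and 5.05), Tmem63c (8.80, 7.50 and 4.79) and Gm8096 (10.26, 9.03 and 6.89). The exceptions among the 15 were Hmox1, where array 1 stood apart below the others, and Syt10, which had 8.15, 10.72 and 6.12.

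**Figure D4:**
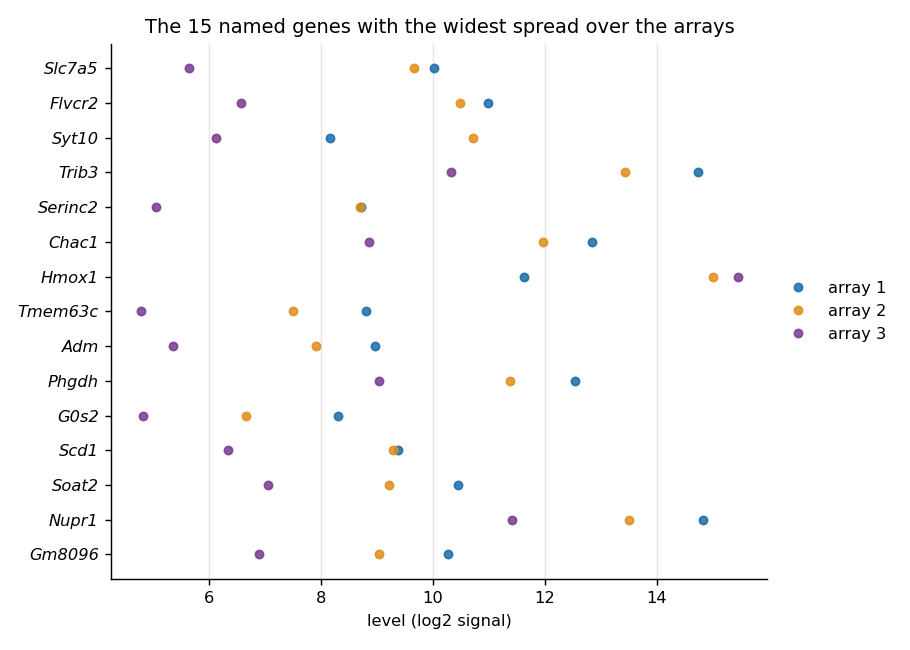
Level on each untreated array (x axis, log2 signal; 1 point per array) of the 15 reference genes with the largest SD among those well above background on all 3 arrays. Array 3 stands apart below the other arrays in 13 of the 15, the exceptions being Syt10 and Hmox1.

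The stress response list contained 5 of the genes with an SD above 1 among its 26 members: Trib3, Chac1, Asns, Phgdh and Psat1. All 26 were detected on all 3 arrays. Asns, asparagine synthetase, had 15.31, 14.44 and 12.39, Psat1, an enzyme of serine synthesis, 12.01, 11.34 and 9.49, and Atf4 itself 16.78, 16.33 and 15.18. The median deviation of the list from each gene's mean was 0.34, 0.09 and -0.47 on arrays 1, 2 and 3, beside 0.01, -0.01 and 0.01 over all detected genes. Fos, an immediate early gene of the same list, had 9.94, 9.74 and 10.39, with array 3 the highest. Egr1, another, had 7.23, 7.29 and 6.55, and Atf3, which stress and LPS both induce, 14.93, 14.70 and 14.42, both with array 3 the lowest.

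The position of the replicates was set beside that in the other groups of the series. Arrays of a given number had the same recorded scan time in every group, except for the first recovered array. Of all detected genes 26.1% had the same replicate number highest in the untreated and in each of the 3 LPS-treated groups, and 33.5% the same number lowest. Of the 233 genes with an SD above 1, 56.7% and 51.5% did. Among the 15 named genes, Slc7a5, Flvcr2, Syt10, Trib3, Serinc2, Tmem63c and Phgdh had replicate 3 lowest in every group. The other 8 did not share their lowest replicate with every group, and G0s2 shared it with none. The part of slide, scan day and experiment in this order was not tested.

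The sequence ahead of the start sites was read for detected and undetected genes. RefSeq promoters (GRCm38.p6) were matched for 17544 members, and the 250 bases before the start were used. CpG content is given as observed over expected CpG, which is low where methylation has eroded CpG pairs and high in CpG islands. Its median was 0.705 for the 10613 genes detected on all 3 arrays and 0.260 for the 5807 detected on none, and 79.0% and 35.9% of them lay above 0.378, the median of all 27025 promoters. When detected genes were cut into 4 equal groups by level, 85.3% of the highest group and 61.9% of the lowest lay above it. A match to TATAAA, anywhere in the 250 bases and on either strand, was present in 7.43% of detected and 18.4% of undetected genes, beside 13.0% of all promoters. The median GC content was 58.8% for detected and 49.2% for undetected genes, and its part in this difference was not tested.

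**Figure D5:**
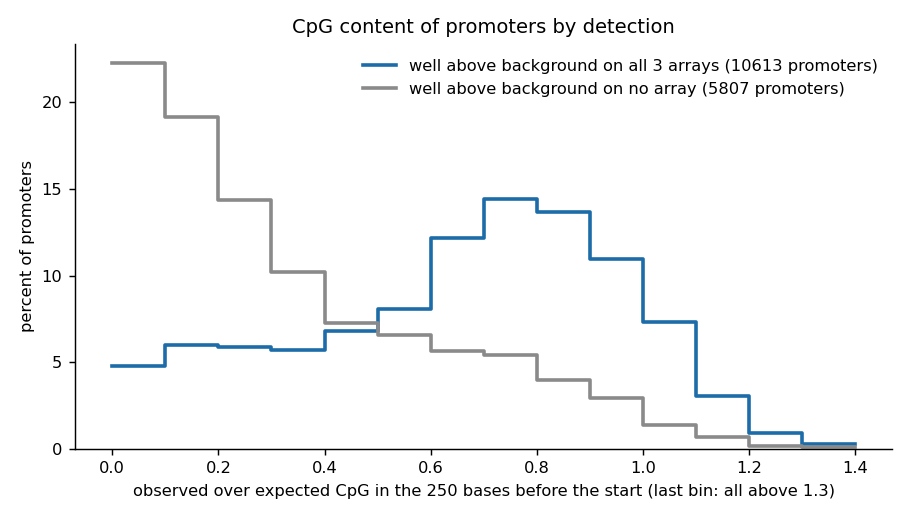
Distribution of observed over expected CpG in the 250 bases before the start (x axis; y axis, percent of promoters) for genes well above background on all 3 untreated arrays and on none. Detected genes peak at high CpG content (median 0.705) and undetected genes at low content (median 0.260).

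The CpG content varied between the lists. Of the 19 core macrophage promoters 26.3% lay above the median of all promoters, as did 25.9% of the 27 scavenger and lectin receptors, 10.0% of the 20 cytokines and 29.4% of the 17 chemokines. In contrast, 82.6% of the 23 transcription factors, 88.5% of the 26 cell cycle genes and 100% of the 25 stress genes did. TATAAA was found in 50% of cytokine and 41.2% of chemokine promoters. GAGGAA, the core of the sites that PU.1 binds, searched on both strands, was found in 47.4% of core macrophage and 48.1% of scavenger and lectin promoters, beside 23.1% of all promoters, 22.8% of those of detected genes and 22.4% of those of undetected ones. It was also common in some lists of other cell types, with 63.6% of the 11 neutrophil promoters, 57.1% of the 14 of T and NK cells and 50% of the 8 of monocytes. It was found in 13.0% of the 23 transcription factor, 20% of the 10 dendritic cell and 8.33% of the 12 stromal and endothelial promoters. CCAAT, the box bound by NF-Y, was found in 73.1% of cell cycle promoters beside 34.5% of all, and the AP-1 site TGACTCA in 3.18% of detected and 5.49% of undetected genes. These are matches of letters and not binding sites.

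Promoters of 5 genes are shown because they contrast the given markers with a detected lysozyme gene and an undetected gene of alternative activation; GAGGAA or its reverse complement TTCCTC is in capitals, and each runs from 250 bases before the start to the base before it, on the gene's strand in GRCm38.p6.
Marco, chr1:120505025-120505274, minus strand: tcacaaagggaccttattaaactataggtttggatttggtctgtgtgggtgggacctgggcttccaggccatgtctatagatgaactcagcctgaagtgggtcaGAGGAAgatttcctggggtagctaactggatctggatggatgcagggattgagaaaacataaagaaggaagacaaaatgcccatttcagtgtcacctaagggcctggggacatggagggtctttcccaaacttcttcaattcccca
Mrc1, chr2:14229164-14229413, plus strand: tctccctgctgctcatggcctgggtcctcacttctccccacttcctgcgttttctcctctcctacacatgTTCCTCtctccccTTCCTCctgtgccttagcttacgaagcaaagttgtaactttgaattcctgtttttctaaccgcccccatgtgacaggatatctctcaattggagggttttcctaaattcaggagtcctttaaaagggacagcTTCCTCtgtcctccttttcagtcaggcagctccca
Cebpa, chr7:35119043-35119292, plus strand: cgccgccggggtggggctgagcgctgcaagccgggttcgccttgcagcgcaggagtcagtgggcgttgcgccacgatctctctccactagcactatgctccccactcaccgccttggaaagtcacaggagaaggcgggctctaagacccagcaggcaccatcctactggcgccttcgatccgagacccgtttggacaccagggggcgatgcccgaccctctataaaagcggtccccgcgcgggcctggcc
Lyz2, chr10:117282273-117282522, minus strand: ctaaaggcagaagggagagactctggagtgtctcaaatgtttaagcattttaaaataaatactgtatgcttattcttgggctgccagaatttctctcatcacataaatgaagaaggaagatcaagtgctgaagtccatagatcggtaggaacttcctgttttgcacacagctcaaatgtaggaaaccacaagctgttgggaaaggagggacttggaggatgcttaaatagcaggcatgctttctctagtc
Retnla, chr16:48842359-48842608, plus strand: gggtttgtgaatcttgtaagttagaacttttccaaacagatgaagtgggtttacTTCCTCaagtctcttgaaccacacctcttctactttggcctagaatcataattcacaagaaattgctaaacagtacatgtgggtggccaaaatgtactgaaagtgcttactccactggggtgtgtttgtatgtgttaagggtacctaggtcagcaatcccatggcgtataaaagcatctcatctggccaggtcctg

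The promoter of Mrc1 held 3 matches to GAGGAA, that of Marco 1 and those of Cebpa and Lyz2 0. Retnla, detected on no array, held 1 match. A match to TATAAA was found in the promoters of Retnla and Cebpa. The promoter of Cebpa had a GC content of 66.4% and an observed over expected CpG of 0.801, while that of Marco had a GC content of 47.6% and no CpG pair at all. The values for Mrc1 were 49.6% and 0.22, for Lyz2 41.6% and 0.0953, and for Retnla 42.8% and 0.0875.

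Detection differed among chromosomes. On the autosomes 53.9% to 65.9% of reference genes were detected on all 3 arrays, on the X chromosome 477 of 964 (49.5%) and on the Y chromosome 1 of 12. That Y-linked gene was none of Ddx3y, Kdm5d, Eif2s3y and Uty, which were read for the label of female mice.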

How the data were processed

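The 3 untreated arrays were read from the deposited scanner files, whose intensity per spot is already background subtracted within the array (Feature Extraction 10.7.3.1, Agilent), with probe positions on mm9, per the file headers. The authors' matrix of log2 values was used as an alternative only; per the submitters' processing notes it was made with limma, without a version, and its background correction is not given in the sources used here. Each of its columns matched its own array (r of 0.983, 0.982 and 0.973 across spots).

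The intensity was put on a log2 scale and each array's 75th percentile over non-control spots (8.78, 8.46 and 9.02) was subtracted. The mean percentile was added back. Control spots and outlier spots (163, 162 and 207) were left out of 59305 non-control spots per array, spots of a probe were averaged, and a gene name was represented by its brightest probe. A gene was detected where its probe was marked well above background. Names were matched to reference genes through accessions, symbols and synonyms (GRCm38.p6, names only). Hspa1b, Ly6c2, Ly6g, Trac and Cfd were not matched. Some items are not reported here. The exon or untranslated region under each probe was not analysed here. The number of arrays limits the precision, and errors are SDs over 3 arrays. No difference between groups was fitted and no test was run; arrays of the other groups served only to compare which replicate was highest or lowest.

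Named genes were a panel from 31 lists (685 genes), up to 30 genes of the top 1% of signal, the 15 reference genes with the largest SD, up to 8 detected members of each list of another cell type, and up to 4 members of a role list detected on 1 or 2 arrays; genes detected on no array, second probes, Cd79a, Mertk, Csf2ra, Tlr13, Ebi3, Oas1a, Ddx60, Icosl, Mgl2, Psat1, Atf4 and the genes with printed probes or words were named after their values were seen. The members and lists were chosen with earlier results of these data known. Python 3.11.15 with numpy 2.4.6 and pandas 2.3.3 was used, with matplotlib 3.10.9 for figures and limma 3.58.1 and data.table (version 1.17.8) in R 4.3.3 for a normexp alternative with an offset of 50. The scripts were tested on simulated data. Alternatives changed the detection call, the probe chosen, the normalization, the treatment of outlier spots and the arrays included.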

Additional observations from a re-analysis of the deposited data

How the results depend on the processing

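No paired analysis was possible because levels were described within the untreated group alone and no difference between groups was fitted. Between 19595 and 20018 genes were detected on every array used when each array was left out in turn, and between 13247 and 14236 on none. Leaving an array out can only raise these 2 counts, so the direction of the change was fixed in advance. With the scanner's weaker call, positive and significant signal, genes on no array fell from 13073 to 5812. Under that call the detected members rose to 8 for neutrophils, 12 for T and NK cells, 7 for B cells, 6 for mast cells, 12 for stem cells, 11 for stromal cells and 8 for epithelial and related cells, and stem cell genes numbered 11 against the 99th percentile of negative controls. With the dimmest probe of a gene, 3 dendritic and 1 mast cell genes were detected. The other list counts stayed within 1.5 times under every alternative run. Genes with an SD above 1 numbered 93 after normexp, 1021 among genes detected on at least 1 array and 1444 among all genes. When each array was left out they numbered between 113 and 691, from SDs over 2 arrays. The 113 came from leaving out array 3, which leaves the arrays of the first scan day. Normexp raised the median of all genes by 1.35 and the authors' values by 0.54. Of 236 named levels 94 and 103 moved by more than their own SD, that shift included. With the mean over probes 45 did, and 0 did with quantile normalization or outlier spots kept. With median scaling or an array left out 0 moved, but neither setting could move a level that far. Median scaling leaves a mean over the 3 arrays unchanged, and dropping 1 of 3 arrays shifts it by less than the SD. Leaving out probes with shared words, an alternative chosen after seeing the data, kept the counts of genes on all 3 arrays and on none within 1.5 times. With a CpG limit of 0.6, 20.2% of promoters of undetected genes were CpG-rich. No level below about 4 was marked well above background on these arrays. The 99th percentile of negative controls was lower, at 3.24, 3.44 and 3.26 on arrays 1, 2 and 3. A level between these limits counted as undetected though it lay above nearly all negative controls. The cause of each change was not tested beyond the looser or stricter definition itself.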

Other observations

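Gene families chosen by name after their values were seen gave further detail. Of 1097 olfactory receptors 92 (8.39%) were detected on all 3 untreated arrays, with a median level of 2.12, and of 258 vomeronasal receptors 16 (6.20%). Keratins were detected for 12 of 53 genes and the homeobox clusters for 6 of 42, among them Hoxa9 and Hoxb4. Voltage-gated channels passed for 19 of 38 genes, among them the potassium channel Kcna3 and the calcium channel Cacna1d. The share of all names detected was 54.8%.

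Housekeeping complexes were nearly complete. All 75 mitochondrial ribosomal proteins and all 37 subunits of respiratory complex I were detected on all 3 arrays, as were 20 of 21 spliceosome proteins, the exception being Snrpn. Of 84 cytosolic ribosomal proteins 81 were detected, without Rpl10l, Rpl3l and Rps12l1. Proteasome subunits passed for 37 of 39, without the testis form Psma8 and the thymus form Psmb11. The proton pump of lysosomes passed for 18 of 22 subunits, without Atp6v0a4, Atp6v1b1, Atp6v1c2 and Atp6v1g3. Zinc finger proteins named Zfp passed for 303 of 349 genes (86.8%), with a median level of 7.96.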
